A study of Mus musculus with 6 samples.

Results

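The 28 enteric neuron and glia genes described here were chosen by gene name, and each had 1 row among the 54532 genes of the deposited tables. Of these, 22 were read as neuron genes and 5 as glia genes (Sox10, S100b, Gfap, Fabp7 and Erbb3). Ednrb, which marks progenitors of both, was put on neither side. RNA came from the intestine of newborn C57BL/6 mice, an inbred strain, and the tissue had been exposed to either NECA or DMSO for 5 days (3 libraries each). NECA is an adenosine analogue that activates several adenosine receptor subtypes, and DMSO, a solvent, is the control. No genetic change was stated for either group. The labels give neither the bowel segment nor whether the exposure took place in the animal or in culture, and separate animals behind the 3 libraries are not stated, so a p-value here measures only the spread between libraries, which may be technical.

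The enteric nervous system arises from neural crest cells that enter and colonise the gut. Progenitors carry the receptors Ret and Ednrb, whose ligands come from the gut wall, and the transcription factors Sox10 and Phox2a follow the glial and neuronal paths. The mature cells lie in ganglia between and beneath the muscle layers, where excitatory neurons use acetylcholine and tachykinins and inhibitory neurons use nitric oxide and VIP. Enteric glia surround these neurons and also run in the mucosa.

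Total counts ran from 15531996 to 18065078 per library, and all 28 genes had counts in every library. NECA replicate 2 stood apart, its median correlation across genes being 0.935, against 0.961 to 0.980 elsewhere. Mitochondrial genes took 1.31% of its counts, 8.39% in DMSO replicate 2 and 2.80% to 4.49% in the rest. Summed over 12 epithelial markers, the libraries held 11237 to 15273 CPM (counts scaled to library size with TMM factors), so that epithelium, as the tissue label implies, was abundant in each. Of the 28 genes, 27 passed the filter on low counts and were tested. Th was left out, with 6 to 19 counts per library.

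Promoter sequences on GRCm38.p6 from RefSeq (250 bases before to 50 after the transcript start) were found for 19 of the 28 genes. Those of 3 genes are shown as examples: S100b, a calcium-binding protein of glia and the gene with the smallest p, Prph, the neuronal intermediate filament peripherin, and Vip, the inhibitory peptide. They lie at chr10:76253586-76253885, chr15:99054924-99055223 and chr10:5638968-5639267, each on the plus strand. Capitals mark TATAAA or TGACGT.
S100b: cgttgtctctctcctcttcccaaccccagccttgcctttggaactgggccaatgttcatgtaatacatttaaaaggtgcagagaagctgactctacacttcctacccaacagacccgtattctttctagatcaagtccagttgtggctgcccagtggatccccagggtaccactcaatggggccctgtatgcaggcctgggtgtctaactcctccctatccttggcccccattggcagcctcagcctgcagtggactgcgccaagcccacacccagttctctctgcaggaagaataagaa
Prph: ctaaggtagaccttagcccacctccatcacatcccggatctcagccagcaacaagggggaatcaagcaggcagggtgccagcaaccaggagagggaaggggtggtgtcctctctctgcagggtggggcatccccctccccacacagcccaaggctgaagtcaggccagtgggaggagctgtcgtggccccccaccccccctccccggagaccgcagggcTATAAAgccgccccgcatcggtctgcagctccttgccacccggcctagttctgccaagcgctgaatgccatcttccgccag
Vip: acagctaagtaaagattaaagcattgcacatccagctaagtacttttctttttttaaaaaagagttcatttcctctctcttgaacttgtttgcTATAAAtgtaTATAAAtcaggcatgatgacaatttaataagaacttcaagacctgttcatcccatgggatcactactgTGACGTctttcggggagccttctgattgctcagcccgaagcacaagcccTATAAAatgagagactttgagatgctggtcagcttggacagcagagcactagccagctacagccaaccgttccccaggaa
In Prph the TATAAA began 31 bases before the start, and in Vip the nearest of 3 began 30 bases before it. The Vip promoter also held TGACGT, the core of the cAMP response element, beginning 79 bases before the start and clear of the TATAAA matches. On either strand that motif was present in 5 of the 19 promoters (Ednrb, Elavl4, Chat, Th and Vip) and in 7.51% of all 32851 promoters. TGACGT contains the base pair CG, whose median count was 10 in member promoters (15 in neuron, 3 in glia genes) and 7 in all promoters. The part of base composition in the motif shares was not tested. TATAAA was present in 3 of 19 and in 13.6% of all promoters, and the E-box CAGCTG in 2 of 19 and in 16.3%. The SOX-type motifs ACAAAG and ACAATG were present in 0 and 2 of 19, against 18.7% and 12.6%. S100b held 0 of the 5 motifs in this window. These matches describe letters and are not binding sites.

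Levels are compared between genes in the deposited FPKM, which scales by transcript length. Among neuron genes Uchl1 and Prph had the highest means. Uchl1, a ubiquitin hydrolase abundant in neurons, had a mean of 21.4 ± 6.42 FPKM in DMSO and 18.7 ± 1.36 FPKM in NECA (SD, n = 3 per group). Prph had 20.5 ± 9.99 and 19.1 ± 2.18 FPKM, which did not differ from Uchl1 beyond their spread. Ret, Tubb3, Gap43 and Hand2 followed, with means over all 6 libraries of 13.9, 12.3, 11.3 and 8.94 FPKM. The other cytoskeletal and synaptic genes reached down to 5.95 FPKM for Stmn2, 1.81 for Syt1, 1.58 for Snap25, 0.935 for Nefl and 0.520 FPKM for Nefm. Transmitter and peptide genes reached from 5.98 FPKM for Vip over all libraries down to 0.126 FPKM for Chat. Between them were Slc18a3 at 2.39, Tac1 at 2.35, Nos1 at 1.57, Dbh at 0.770 and Th at 0.241 FPKM. Among glia genes Erbb3 was far above the others at 39.7 FPKM, followed by S100b at 7.51, Fabp7 at 3.94, Sox10 at 2.09 and Gfap at 0.227 FPKM. Erbb3 is a receptor that epithelium also makes, and its level was above that of every other member in each library. The libraries of neighbouring genes in this order can be compared in the plot of levels by gene.

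**Figure D1:**
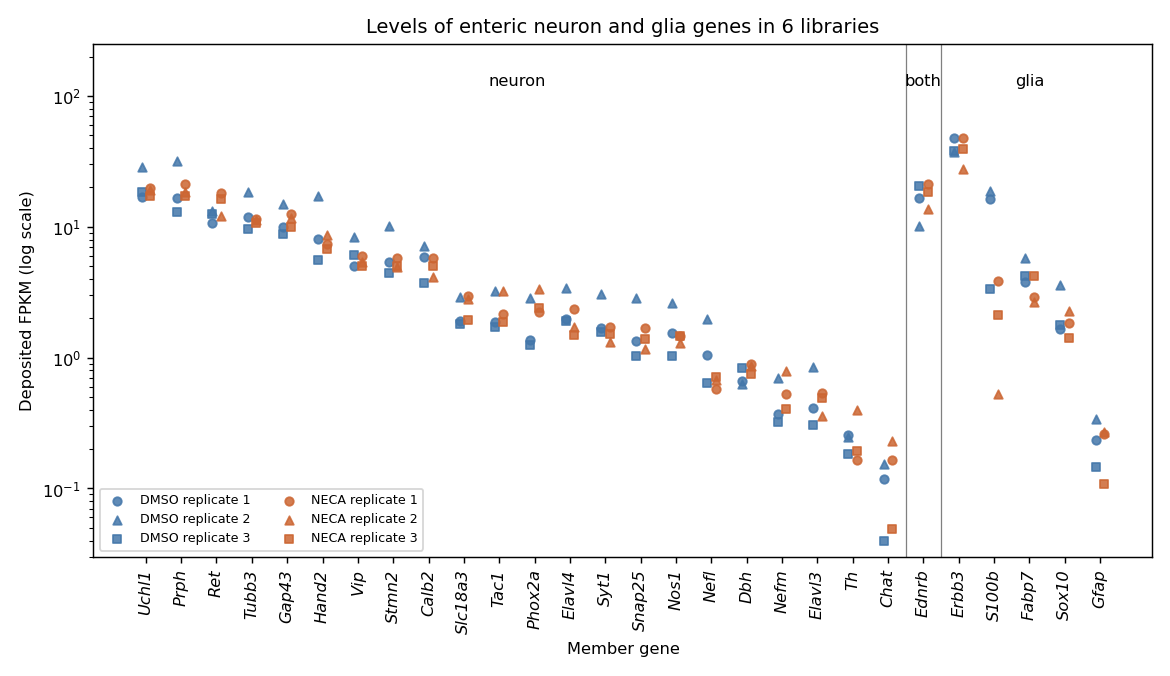
Deposited FPKM (log axis) of each of the 28 genes in each library. Blue points are DMSO and orange points NECA, with circles, triangles and squares for replicates 1, 2 and 3. In most neuron genes the blue triangle, DMSO replicate 2, is the highest point, and in S100b the NECA points lie low.

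In the comparison of NECA with DMSO, edgeR's quasi-likelihood test called 0 of the 27 tested genes after adjustment over all genes, where 0% of the 15847 tested were called. At an unadjusted p under 0.05 there was 1 of 27, S100b, which was lower in NECA, where the background was 5.48% of all genes (2.45% higher and 3.03% lower). DESeq2 also called 0, with S100b again the only one at an unadjusted p under 0.05, where the background was 3.96% of all genes. The 2 groups did not overlap in CPM in 0 of the 27 genes, where the background was 13.7% (6.49% higher and 7.16% lower). Of 21 tested neuron genes 8 had a fitted fold change above 0 and 13 below, with a median log2 fold change (NECA over DMSO) of -0.19. All 5 glia genes were below 0, with a median of -0.36. The median over all genes tested was -0.01, with 49% of them above 0 and 51% below.

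Many of these signs rested on 1 control library. DMSO replicate 2 was the highest of the 6 libraries in 16 of the 21 tested neuron genes and in 4 of the 5 glia genes, where it was the highest in 26.5% of all genes. DMSO replicate 3 was the lowest in 14 of the 21, where the background was 10.3%. Both libraries were singled out after these values were seen, so the counts are a description and not a test. Without DMSO replicate 2 the neuron median was 0.18, with 18 of 22 tested neuron genes above 0, and the glia median was -0.16. In that fit 52.2% of all genes were above 0. The sign changed in 12 of the 27 genes, and the same share over all genes was not computed. Without that library 0 genes were called either. Phox2a joined S100b at an edgeR unadjusted p under 0.05, where the background was 3.51% of all genes.

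**Figure D2:**
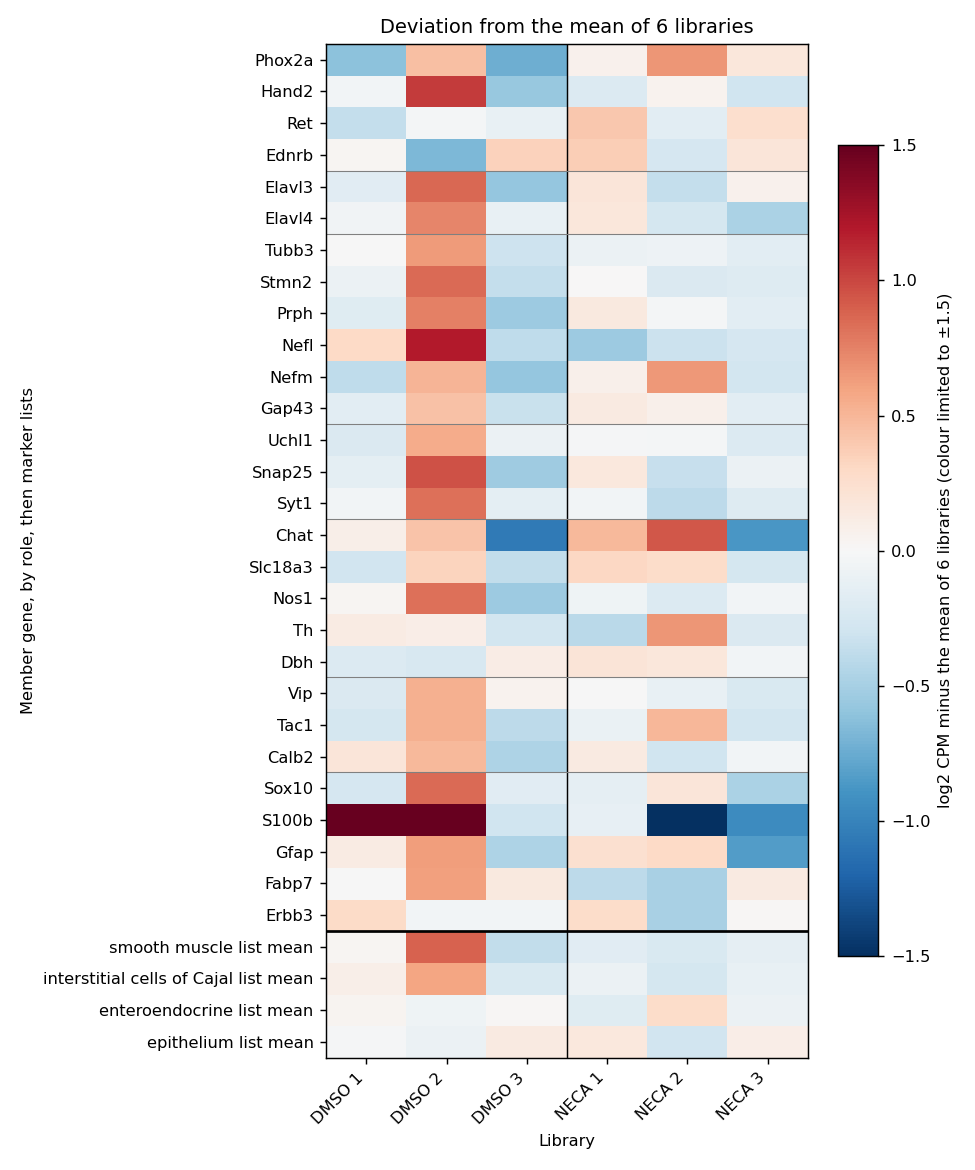
Colour gives log2 CPM minus the mean of the 6 libraries for each member (rows, by role) and for the mean of 4 marker lists (bottom rows), with libraries in columns. The column of DMSO replicate 2 is red in most neuron rows, in every glia row except Erbb3, and in the smooth muscle and interstitial cell rows. Ednrb is blue there.

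Smooth muscle markers moved with the neuron genes. All 12 smooth muscle markers were highest in DMSO replicate 2, which held 8509 CPM of them in sum. The other DMSO libraries held 4443 and 3451 CPM, and NECA replicates 1 to 3 held 3938, 3671 and 4063 CPM. Acta2, the smooth muscle actin with the highest FPKM of that list, was at 1017, 1926 and 823 CPM in DMSO and 904, 817 and 897 CPM in NECA. None of these markers was at 0 in all libraries, and 0 of 12 had an unadjusted p under 0.05, with a median log2 fold change of -0.53 (Acta2 -0.53, SE 0.33; Actg2, the enteric actin, -0.48, SE 0.37). The interstitial cell markers, of the pacemaker cells of the muscle layer, were highest in the same library in 6 of 7 genes, with summed levels of 73.5 to 149 CPM in DMSO and 73.0 to 86.2 CPM in NECA. Their median was -0.37, with Ano1, a chloride channel, at -0.24 (SE 0.23) and the receptor gene Kit at -0.37 (SE 0.30). In a fit with the mean of the smooth muscle list as a covariate the neuron median was 0.19, with 17 of 21 genes above 0, and the glia median -0.12. Of all genes 52.6% were above 0 in that fit. Neuron genes minus smooth muscle genes, as a difference of mean log2 CPM, was -3.95, -4.06 and -3.80 in DMSO and -3.55, -3.53 and -3.82 in NECA, so that the groups overlapped. The covariate, the smooth muscle mean log2 CPM, was 8.01 in DMSO replicate 2 and 6.76 to 7.16 in the other libraries. The fit with it therefore comes close to leaving out DMSO replicate 2. It cannot separate muscle content from other traits of that library, and the part of muscle content in the fold changes was not tested. In whole tissue, fewer cells of a type and less RNA per cell cannot be told apart.

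**Figure D3:**
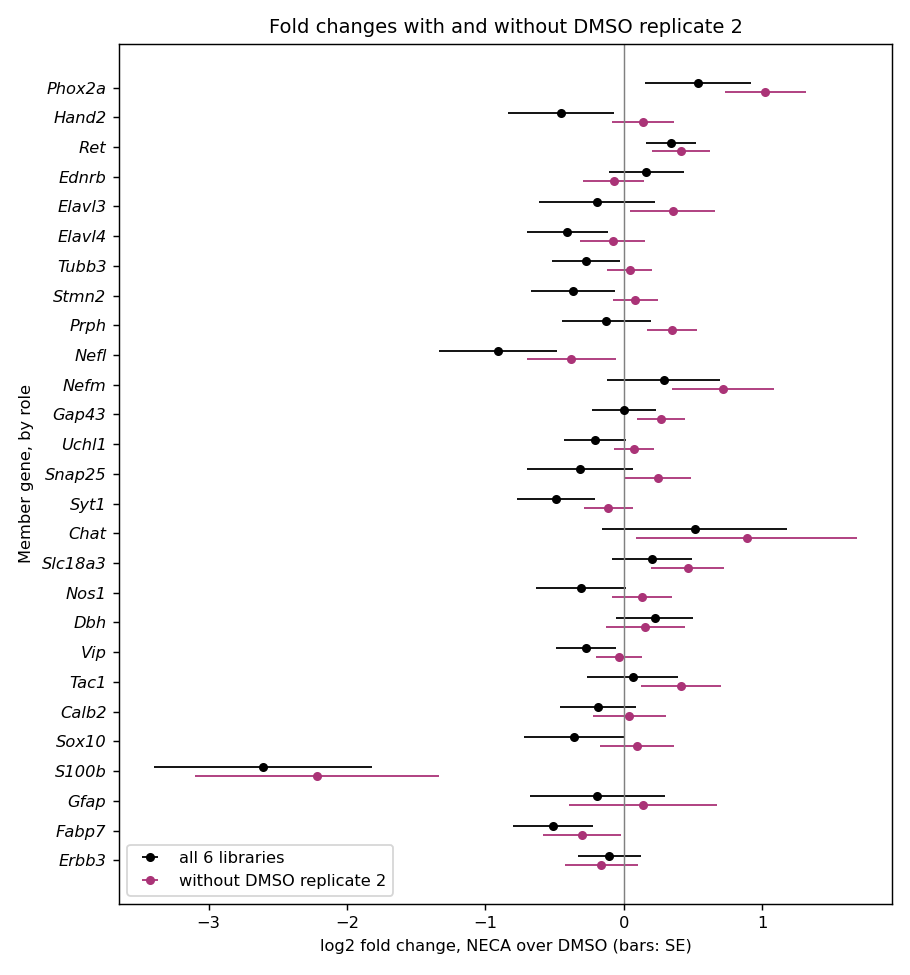
Log2 fold change of NECA over DMSO with its SE for the 27 tested genes, from all 6 libraries (black) and without DMSO replicate 2 (purple). Most purple points lie to the right of the black ones, and S100b stays below 0 in both.

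Among identity genes and receptors, Phox2a and Ret stood above 0 and Hand2 below. Phox2a (chromosome 7, 101818313 to 101822726, GRCm38), a homeodomain factor of autonomic neurons, was at 2.79, 5.96 and 2.56 CPM in DMSO and 4.52, 6.93 and 4.88 CPM in NECA. The 3 NECA libraries lay above 2 of the DMSO libraries, and DMSO replicate 2 lay among them. Its log2 fold change was 0.54 (SE 0.38, 95% interval -0.35 to 1.42), and 1.02 (SE 0.29) without DMSO replicate 2, with an edgeR adjusted p of 0.940. Phox2a shares 95 exonic bases with Inppl1 on the opposite strand, and the strand setting of the counts is not given in the sources used here.

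Ret (chromosome 6, 118151745 to 118197718), the receptor for GDNF-family ligands, was at 72.8, 91.2 and 85.9 CPM in DMSO and 122.8, 83.1 and 110.7 CPM in NECA. NECA replicates 1 and 3 lay above all DMSO libraries, and NECA replicate 2 lay within their range. The log2 fold change was 0.34 (SE 0.18, 95% interval -0.08 to 0.76), and 0.49 (SE 0.14, edgeR adjusted p = 0.848) without NECA replicate 2. Unlike most neuron genes, Ret was not highest in DMSO replicate 2. Ednrb (chromosome 14, 103814625 to 103844402), the endothelin receptor of the crest lineage, was at 71.0, 43.8 and 88.6 CPM in DMSO and 90.1, 58.8 and 79.0 CPM in NECA, a log2 fold change of 0.16 (SE 0.27) that was -0.07 without DMSO replicate 2. Ednrb was lowest in the very library in which most neuron genes were highest. Both Ret and Ednrb are also known from other cells. Ednra, at 10.0 CPM against 18.0 to 21.0 CPM elsewhere, was lowest in that library too, as were other signalling genes, Zeb2, Ptch1, Ece1 and Nrg1 among them. Of the 26 tested genes of GDNF, endothelin and neuregulin signalling, 12 were highest there. Hand2, a transcription factor needed for enteric neurons and also made by mesenchyme, was at 19.3, 41.2 and 13.3 CPM in DMSO and 17.2, 20.4 and 16.1 CPM in NECA. Its log2 fold change of -0.45 (SE 0.39) was 0.14 without DMSO replicate 2, and it shares 461 exonic bases with Hand2os1 on the opposite strand.

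Both neuronal ELAV-like genes, whose proteins bind and stabilise neuronal messages, followed the DMSO replicate 2 pattern. Elavl4 was at 10.8, 18.7 and 10.4 CPM in DMSO and 12.7, 9.32 and 8.04 CPM under NECA (a log2 fold change of -0.41, with SE 0.29). Elavl3, lower throughout, was at 2.85, 5.96 and 2.13 CPM against 3.68, 2.49 and 3.39 CPM (-0.19, SE 0.42). Per length, Elavl4 was 3.03 to 6.24 times Elavl3 over the 6 libraries, with overlapping groups. Elavl3 shares 256 exonic bases with the predicted gene Gm49318 on the same strand, and these paralogs resemble each other, so their split is uncertain.

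Genes of the neuronal cytoskeleton and of axon growth had 5 of 6 members highest in DMSO replicate 2. Prph (chromosome 15, 99055174 to 99058978) was at 33.8, 65.0 and 26.1 CPM in DMSO and 42.5, 37.5 and 34.4 CPM in NECA. The 3 NECA libraries lay within the DMSO range, and the log2 fold change was -0.13 (SE 0.32, 95% interval -0.87 to 0.62). Stmn2, a microtubule-destabilising protein of growing axons, had -0.37 (SE 0.31), and Tubb3, the neuronal tubulin, -0.27 (SE 0.25). Gap43, a growth cone protein that glia can also carry, had 0.00 (SE 0.23, 95% interval -0.54 to 0.54). At 0.08, 0.04 and 0.27 the last 3 were all above 0 without DMSO replicate 2.

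The 2 neurofilament genes differed in sign. Nefl, the light subunit, was at 3.57, 6.76 and 2.19 CPM in DMSO and 1.94, 2.29 and 2.41 CPM in NECA, a log2 fold change of -0.91 (SE 0.43). Without DMSO replicate 3 it was -1.21 (SE 0.37, edgeR unadjusted p = 0.0142, adjusted p = 0.640). Without DMSO replicate 2 it was -0.38 (SE 0.32, edgeR unadjusted p = 0.284, adjusted p = 0.940). Nefm, the medium subunit, was at 2.18, 4.15 and 1.88 CPM in DMSO and 3.04, 4.59 and 2.35 CPM in NECA, a log2 fold change of 0.29 (SE 0.41). Nefl was highest in DMSO replicates 1 and 2, with the other 4 libraries close together, and both genes overlapped between the groups. The Nefl to Nefm ratio in FPKM was 2.81, 2.79 and 2.0 in DMSO and 1.09, 0.855 and 1.75 in NECA. Each NECA ratio lay below each DMSO ratio. The Prph to Nefl ratio was 16.0, 16.3 and 20.2 in DMSO and 37.1, 27.7 and 24.1 under NECA, each NECA ratio lying above each DMSO ratio. These were the 2 of 8 ratios, computed after the values were seen, whose groups did not overlap, and they were not tested. Both contain Nefl, so they are not separate results. Groups did not overlap in 13.7% of all genes in CPM, and no such share was computed for ratios. On chromosome 14 Nefl (68083863 to 68089095, plus strand) lies inside the annotated Nefm gene (68082590 to 68124846, minus strand), and the 2 share 1108 exonic bases. Without a stated strand setting, the reads of the 2 genes there cannot be told apart, and the counts behind the ratio were 30 to 101 per library.

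Synaptic and cytosolic neuron genes were all highest in DMSO replicate 2. Uchl1 (chromosome 5, 66676091 to 66687234) was at 27.8, 47.8 and 30.4 CPM in DMSO and 32.0, 31.8 and 28.1 CPM in NECA. Apart from DMSO replicate 2, its values spanned a narrow range, and its log2 fold change was -0.21 (SE 0.22, 95% interval -0.72 to 0.31). Syt1, the calcium sensor of vesicle release, had -0.49 (SE 0.28), and Snap25, a component of the fusion machinery, -0.32 (SE 0.38). Without DMSO replicate 2 the 3 were at 0.07, -0.11 and 0.25. Uchl1 shares 295 exonic bases with the antisense gene Uchl1os.

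Cholinergic genes came from 1 locus and differed widely in level. Slc18a3 (chromosome 14, 32462438 to 32464850), the vesicular acetylcholine transporter, lies within Chat (32408203 to 32465989), the acetylcholine-synthesising enzyme, on the same strand and with 0 shared exonic bases. Slc18a3 was at 4.63, 7.16 and 4.38 CPM in DMSO and 7.04, 6.88 and 4.71 CPM in NECA, a log2 fold change of 0.21 (SE 0.29, 95% interval -0.47 to 0.88). NECA replicates 1 and 2 lay just below the highest DMSO library, and NECA replicate 3 just above the lower ones. Chat was counted 10, 11 and 3 times in DMSO against 12, 22 and 4 times under NECA, too few for a stable fold (0.51, SE 0.67). Per length, Slc18a3 was 12.2 to 45.5 times Chat.

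Nos1, the neuronal nitric oxide synthase of inhibitory neurons, was at 17.2, 30.0 and 11.5 CPM in DMSO and 16.2, 14.7 and 16.5 CPM in NECA, a log2 fold change of -0.31 (SE 0.32) that was 0.13 without DMSO replicate 2. The NECA libraries lay within the DMSO range. Nos1 shares 268 exonic bases with the antisense gene Gm26995. The catecholamine genes were low. Th, which starts catecholamine synthesis, was counted 11, 9 and 7 times in DMSO against 6, 19 and 8 times under NECA. Dbh, which makes noradrenaline and is present in autonomic neurons, was at 1.79, 1.74 and 2.25 CPM in DMSO and 2.39, 2.34 and 2.01 CPM in NECA. Its log2 fold change was 0.22 (SE 0.28), and of the tested neuron genes it was the only one lowest in DMSO replicate 2.

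Among the peptide and calcium-binding genes, Vip (chromosome 10, 5639218 to 5647617) was at 17.3, 29.2 and 20.9 CPM in DMSO and 20.0, 18.6 and 17.2 CPM in NECA. Its groups overlapped, and its log2 fold change was -0.27 (SE 0.22, 95% interval -0.77 to 0.23) and -0.04 without DMSO replicate 2. Tac1, which encodes substance P and neurokinin A and is also made by enteroendocrine cells, had 0.07 (SE 0.33). Calb2, the calcium-binding protein calretinin of enteric neuron subtypes, had -0.18 (SE 0.28). Vip was 1.69 to 3.55 times Tac1 per length, with overlapping groups.

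Glia genes did not form 1 pattern, and S100b had by far the largest difference. S100b (ENSMUSG00000033208, chromosome 10, 76253853 to 76261159) was counted 439, 427 and 80 times in the DMSO libraries, and 88, 16 and 55 times under NECA. Scaled, these were 24.5, 28.6 and 5.00 CPM against 5.69, 0.798 and 3.16 CPM. DMSO replicates 1 and 2 were high, whereas DMSO replicate 3 lay within the NECA range. Its log2 fold change was -2.61 (SE 0.79, 95% interval -4.44 to -0.78), with an unadjusted p of 0.0113 and an edgeR adjusted p of 0.738. Leaving out 1 library at a time gave -3.30 to -2.13 with edgeR adjusted p of 0.637 to 0.940, and without both libraries numbered 2 it was -1.74 (SE 0.63). With the smooth muscle covariate it was -1.87 (SE 0.79), with an edgeR unadjusted p of 0.0540 and an adjusted p of 0.974, so that the unadjusted call was lost.

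The other glia genes did not share this difference. Sox10, the transcription factor that defines enteric glia and their progenitors, was at 5.13, 11.2 and 5.44 CPM in DMSO and 5.56, 6.98 and 4.36 CPM under NECA (a log2 fold change of -0.36, SE 0.36). Apart from DMSO replicate 2 its libraries lay close together, and without that library its fold change was 0.09. Fabp7, a fatty acid binding protein of glial progenitors, was at 4.80, 7.43 and 5.31 CPM in DMSO and 3.62, 3.39 and 5.28 CPM in NECA (-0.51, SE 0.29). NECA replicates 1 and 2 lay below all DMSO libraries, and NECA replicate 3 lay within them. Gfap, the glial intermediate filament, was counted 18, 22 and 10 times in DMSO against 17, 23 and 8 times under NECA (-0.19, SE 0.49). Erbb3, the neuregulin co-receptor of glia, was at 287.7, 229 and 230.2 CPM in DMSO and 287.4, 168 and 239 CPM in NECA (-0.11, SE 0.23). Its lowest library was NECA replicate 2, which was also lowest in the summed epithelial markers.

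**Figure D4:**
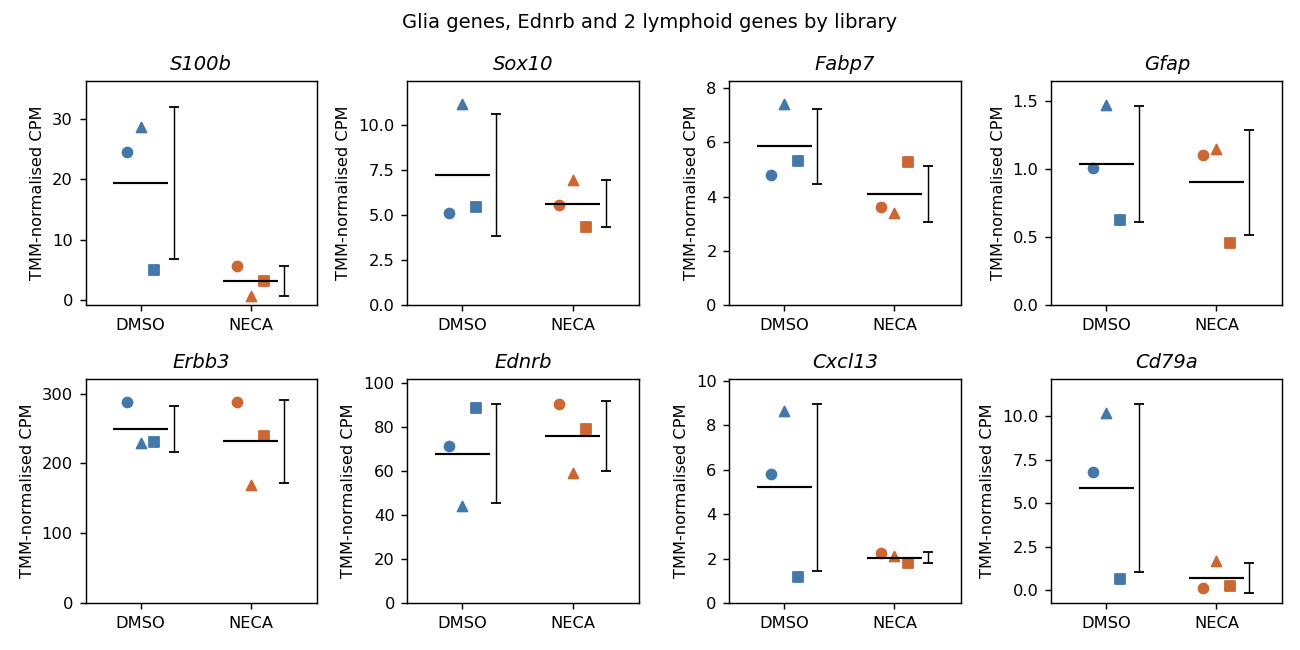
TMM-normalised CPM of the 5 glia genes, Ednrb, and 2 lymphoid genes, by library, with the group mean (line) and SD (bar, n = 3). Circles, triangles and squares are replicates 1, 2 and 3. S100b, Cxcl13 and Cd79a are high in DMSO replicates 1 and 2 and low in DMSO replicate 3, a split that Sox10 and Erbb3 do not show.

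Other cells also make S100b, adipocytes among them. Of 9 adipocyte markers, Adipoq, Retn and Lep had 0 counts in all 6 libraries and Cfd had at most 1. Summed over the list, the DMSO libraries held 354, 399 and 327 CPM and the NECA libraries 395, 103 and 365 CPM. Nearly all of it came from Cidec, Lipe and Fabp4, which enterocytes or vessels also express. NECA replicate 2, lowest in this sum, was also lowest in S100b and in the summed epithelial markers. Genes of B cells and lymphoid follicles moved with S100b in DMSO: the 12 genes summed to 94.8, 134 and 28.9 CPM in DMSO and 22.6, 36.5 and 27.4 CPM in NECA, and 0 of the 12 were at 0 in every library. An unadjusted p under 0.05 was found for 4 of the 10 tested, where the background was 5.48% of all genes (3.03% lower). These were Cd79a (-3.03, SE 1.10), Cd79b (-1.81, SE 0.43), Ighm (-1.52, SE 0.36) and Igkc (-3.48, SE 1.05). The groups did not overlap in Cd79b and Ighm, where the background was 13.7% (7.16% lower). Cxcl13, the chemokine that draws B cells into follicles, was at 5.80, 8.63 and 1.19 CPM in DMSO and 2.26, 2.09 and 1.78 CPM in NECA. DMSO replicates 1 and 2 were high in S100b and in this list, but NECA replicate 2, lowest in S100b, was the highest NECA library in the list. Both lists were written after the S100b values were seen, and the part of adipocytes or lymphoid tissue in the S100b result was not tested.

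Neurons and glia were compared within each library as the mean log2 CPM of the 21 tested neuron genes minus that of the 5 glia genes. This difference was -0.32, -0.01 and 0.02 in DMSO and 0.33, 0.92 and 0.48 in NECA, with means of -0.10 ± 0.19 and 0.58 ± 0.30 (SD, n = 3). Every NECA library lay above every DMSO library. Without S100b the gap between group means was 0.22 in place of 0.68, and the values were -0.05, 0.22 and -0.13 in DMSO and 0.20, 0.27 and 0.24 under NECA, with overlapping groups. Against Sox10, Gfap and Fabp7 alone, a choice made after the values were seen, the difference was 1.59, 1.59 and 1.46 in DMSO and 1.85, 1.71 and 1.90 in NECA. That gap between group means was smaller, at 1.55 ± 0.07 against 1.82 ± 0.10, and it too separated the groups. The comparison is a description of 6 libraries over genes that share them, and it was not tested. The ratio of Prph to Sox10 in FPKM, the filament against the glial factor, was 7.33 to 10.0 in DMSO and 8.21 to 12.03 in NECA, with overlap.

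**Figure D5:**
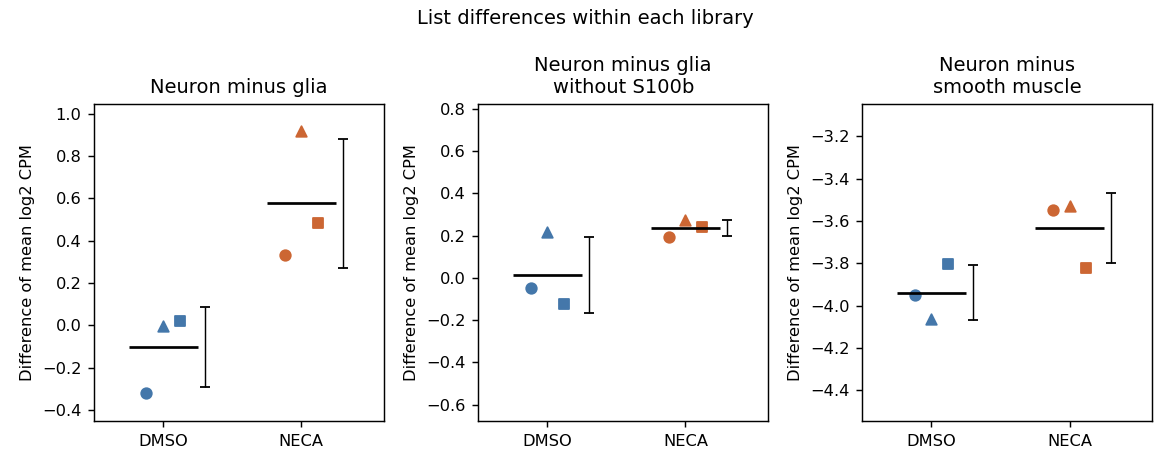
Difference of mean log2 CPM between 2 gene lists in each library, with the group mean (line) and SD (bar, n = 3); circles, triangles and squares are replicates 1, 2 and 3, and all 3 panels span the same height. The groups separate in neuron minus glia, and overlap once S100b is left out and in neuron minus smooth muscle.

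Other genes of the same cells were read from longer lists. For these and the lists that follow, the background was 5.48% of all genes at an unadjusted p under 0.05. Groups that did not overlap were found in 13.7% of all genes. Of 46 other neuron genes 43 were tested, 13 above and 30 below 0 with a median log2 fold change of -0.19, and 32 of the 43 were highest in DMSO replicate 2. After adjustment 0 were called, and 1 had an unadjusted p under 0.05: Ddc, the decarboxylase of amine synthesis that gut epithelium also makes, at 45.8, 32.9 and 36.6 CPM in DMSO and 30.8, 25.1 and 29.5 CPM in NECA (-0.43, SE 0.17). Ddc and the sodium channel gene Scn9a (-0.80, SE 0.40) were the 2 whose groups did not overlap. The 2 with the highest FPKM were Gal, the peptide galanin (0.07, SE 0.39), and Tbx3 (-0.17, SE 0.14).

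Of 25 other glia and Schwann cell genes 20 were tested, 8 above and 12 below 0 with a median of -0.08, and 10 were highest in DMSO replicate 2. Their summed level was 571, 480 and 514 CPM in DMSO and 449.3, 449.3 and 454 CPM under NECA, so that the sums did not overlap, whereas the means of log2 CPM did. Postn, the largest part of each sum, was at 295, 187 and 266 CPM in DMSO and 196, 195 and 206 CPM under NECA, with overlapping groups. Of these 1 had an unadjusted p under 0.05 and non-overlapping groups: Fxyd1, a regulator of the sodium pump, at 9.60, 15.9 and 8.19 CPM in DMSO and 6.85, 6.28 and 6.77 CPM in NECA (-0.76, SE 0.28, edgeR adjusted p = 0.738). Entpd2, an ectonucleotidase of enteric glia, was at -0.23 (SE 0.23) and the matrix gene Postn, which fibroblasts also make, at -0.32 (SE 0.20).

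For the signals that act on Ret, Ednrb and Erbb3, 26 of 31 genes of GDNF, endothelin and neuregulin signalling were tested, 9 above and 17 below 0 with a median of -0.17. An unadjusted p under 0.05 occurred in 0 of them. Erbb2, the partner of Erbb3, was at 173, 152 and 148 CPM in DMSO and 137, 115 and 145 CPM in NECA (-0.26, SE 0.16), and was the only 1 whose groups did not overlap. Nrtn, the Ret ligand neurturin, was at -0.22 (SE 0.28), and Dok4, an adaptor of Ret, at 0.00 (SE 0.14). Among 20 enteroendocrine markers, of epithelial cells that share Snap25 and Tac1 with neurons, 9 were above and 11 below 0 with a median of -0.06, and 7 were highest in DMSO replicate 2. Their summed level was 490 to 664 CPM in DMSO and 446 to 660 CPM in NECA. The hormone gene Cck (-0.69, SE 0.23) had the 1 unadjusted p under 0.05, Gip (-1.002, SE 0.59) was the 1 gene with groups apart, and Cpe (-0.71, SE 0.34) and Sct (0.51, SE 0.41) had the highest FPKM. The 12 mesothelium and fibroblast markers had a median of -0.15, with 2 above and 10 below 0 and sums of 3222 to 4395 CPM in DMSO and 3276 to 4115 CPM in NECA. Dcn, a matrix proteoglycan (-0.34, SE 0.16), was lower in every NECA library than in any DMSO library, and the collagens Col3a1 (-0.15, SE 0.26) and Col1a1 (0.06, SE 0.24) had the highest FPKM. Of the 12 epithelial markers 10 were above and 2 below 0, with a median of 0.19. The 2 with the highest FPKM were the 2 below 0, Fabp1 at -0.35 (SE 1.16) and Fabp2 at -0.46 (SE 0.64). Of the 12, 1 was highest in DMSO replicate 2.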

How the data were processed

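The authors deposited raw counts and FPKM for every gene in each of the 6 libraries, per the file headers; FPKM divides by transcript length and by depth. Per the submitters' processing notes, HISAT, StringTie and edgeR and the builds mm10 and GRCm38 were used; their versions, the strand setting and the handling of multi-mapped reads are not stated in the labels. Complementary DNA was made by SMARTer chemistry and PCR without stated molecular identifiers, per the labels' protocols, and reads of a low gene may therefore repeat the same molecule.

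Low genes were removed by edgeR 4.0.16 (filterByExpr with a minimum count of 10 and a total of 15). The rest were scaled by TMM and tested with glmQLFTest in R 4.3.3, NECA against DMSO, over 15847 genes with Benjamini-Hochberg adjustment (threshold 0.05). Each SE is the absolute log2 fold change over the square root of F. List means use log2 CPM with a prior count of 2. Alternatives were DESeq2 1.42.0 and its size factors, limma 3.58.1 on log2(FPKM + 1) and log2(FPKM + 0.1), other filters, a replicate block, each library left out and trimmed lists. Added after seeing the data were the smooth muscle covariate, the fit without both libraries numbered 2 and the lists without S100b. So were the adipocyte and lymphoid lists and the 8 FPKM ratios. The counts of genes highest in DMSO replicate 2 or lowest in DMSO replicate 3 were not planned either. Nor was the neuron minus smooth muscle difference. On simulated counts the test recovered 14.3% of 2-fold and 74.5% of 4-fold changes among 15614 genes in this comparison, with 7 false calls. Each gene was drawn independently, without a shift shared by many genes of a library such as that of DMSO replicate 2. The rates may therefore differ from those in the real libraries.

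Values are given in every library for members with an unadjusted p under 0.05, the member with the highest FPKM in each role, all glia members and Ednrb, and for others chosen after their values were seen. Of other lists, genes with an unadjusted p under 0.05 or non-overlapping groups (up to 4 in each direction) and the 2 with the highest FPKM are named. Further genes of these lists, Ednra, Zeb2 and Ptch1 among them, were chosen after their values were seen. The members, lists and tests were chosen with earlier results of these data known. Positions are from GENCODE M21 on GRCm38.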

Additional observations from a re-analysis of the deposited data

How the results depend on the processing

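In every setting run 0 of the 28 genes were called after adjustment. Over all genes edgeR called 0, 2 without a filter on low counts, and DESeq2 called 9. The number of members at an edgeR unadjusted p under 0.05 was 1 in the reported fit, where the share over all genes was 5.48%. It was 2 without a filter (Nefl, lower in NECA, and S100b), with a share of 5.83%. Without both libraries numbered 2 it was 3 (Phox2a, Ret and S100b), with a share of 7.44%. With 1 library left out it was 1 to 2, with shares of 3.14% to 7.43%, and S100b was always among them. The other was Phox2a without DMSO replicate 2, Nefl without DMSO replicate 3 and Ret without NECA replicate 2. With the smooth muscle mean as a covariate, added after seeing the data, the neuron median was 0.19 and these log2 fold changes changed sign: Hand2 0.18, Ednrb -0.057, Elavl3 0.38, Tubb3 0.058, Stmn2 0.091, Prph 0.37, Uchl1 0.035, Snap25 0.27, Nos1 0.19, Calb2 0.11, Sox10 0.043 and Gfap 0.19. Without both libraries numbered 2, also added, they were Hand2 0.034, Elavl3 0.51, Tubb3 0.027, Stmn2 0.13, Prph 0.36, Uchl1 0.048, Snap25 0.37, Nos1 0.18, Calb2 0.15 and Erbb3 0.026. A filter of 5 CPM in 3 libraries left 20 members and put Gap43 at -0.021. Leaving out 1 library at a time gave a neuron median of -0.35 to 0.18, a glia median of -0.57 to -0.16 and a neuron minus glia difference of 0.51 to 0.80 (0.68 with all libraries, 0.22 without S100b). The genes that changed sign in at least 1 of these fits ranged as follows: Calb2 -0.40 to 0.041, Ednrb -0.071 to 0.40, Elavl3 -0.46 to 0.35, Erbb3 -0.29 to 0.082, Gap43 -0.15 to 0.27, Gfap -0.44 to 0.14, Hand2 -0.75 to 0.14, Nefm -0.010 to 0.72, Nos1 -0.58 to 0.13, Prph -0.37 to 0.35, Snap25 -0.59 to 0.25, Sox10 -0.57 to 0.094, Stmn2 -0.59 to 0.084, Tac1 -0.20 to 0.42, Tubb3 -0.46 to 0.042 and Uchl1 -0.36 to 0.073. S100b kept its sign in each setting, but with the smooth muscle covariate it was -1.87 and no longer at an unadjusted p under 0.05. The 1 member under 0.05 there was Phox2a, at 1.0003, where the share over all genes was 3.18%.

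Libraries with the same replicate number did not deviate together (correlations 0.009, -0.186 and -0.020), so the numbers were not taken as pairs. With the replicate block 0 genes were called, the neuron median was -0.14, the glia median -0.30 and S100b -2.49. Depth limits Chat, Th and Gfap most, with 3 to 23 counts per library, and with 3 libraries per group the intervals of most members include changes of either sign.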
